A study of Rattus norvegicus with 8 samples.

Results

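Adrenergic receptors are the cell surface receptors for noradrenaline, released by sympathetic nerves, and adrenaline, released by the adrenal medulla. The alpha-1 receptors couple to Gq, phospholipase C and calcium and drive contraction of smooth muscle, and they are the target of the alpha blockers used for enlarged prostate. The alpha-2 receptors couple to Gi and lower cyclic AMP, on nerve endings as a brake on noradrenaline release and on other cells as well, while the beta receptors couple to Gs and raise cyclic AMP. The 7 genes described here, Adra1a, Adra1b, Adra1d, Adra2a, Adra2b, Adra2c and Adrb1, were taken by the gene name of the array's probes. They were measured by 9 of the array's 41012 gene probes, and they make up 7 of its 35535 gene names. They were selected on values of these same arrays that were already known, their spots' detection, their ratio over the reference and their difference between treated and control rats, so those values are given as a description.

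RNA came from the ventral prostate of 8 heterozygous male TRAP rats aged 15 weeks, given as SD strain. TRAP rats carry a transgene for the simian virus large T antigen under the probasin promoter, which is active in prostate epithelium, and they develop prostate adenocarcinoma. The 4 control rats (Control 102, 103, 104 and 106) had basal diet and tap water. The 4 treated rats (Telmisartan 302, 303, 305 and 306) drank telmisartan, which blocks the receptor through which angiotensin II raises blood pressure, in a dose of 10 mg/kg per day for 12 weeks from 3 weeks of age. Each array set 1 TRAP prostate in the Cy5 dye against normal ventral prostate of male F344 rats aged 6 weeks in the Cy3 dye. The dyes were never swapped. A ratio over the reference therefore mixes transgene, strain, age and dye, which cannot be told apart, and it is described without a test.

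On each array, between 58.8% and 76.4% of gene probes were well above background in Cy5 and between 47.3% and 51.9% in Cy3. "Well above background" is the scanner software's own mark, set array by array. The Cy5 share was 64.2% to 76.4% in control rats and 58.8% to 67.5% in treated rats. All 9 luminal prostate markers that were listed were measured, among them Krt18, Cldn4 and Pbsn, each well above background in Cy5 on all 8 arrays. Pbsn, which encodes the androgen-dependent secretory protein probasin, stood at a log2 ratio of -2.43 ± 0.41 in control and -2.78 ± 0.18 in treated rats (SD, n = 4 each).

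The probes are 60 bases long. The sequences shown first are those of the receptor that differed most between the groups (Adra1d), of the 3 probes that gave Adra1b different signals, and of the receptor above the reference in every rat (Adra2a). For Adra1d and Adra1b probe 1 the first 30 bases are given. Capitals mark the longest run shared by any of the 36 pairs of these receptors' probes, 10 bases held in common by Adra1b probe 2 and Adra2a.

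Adra1d: ccaggctgccaaaggggagagccttattta

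Adra1b probe 1: agttcctctattcgtatttatctgtgggta

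Adra1b probe 2: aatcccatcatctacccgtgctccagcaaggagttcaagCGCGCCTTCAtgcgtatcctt

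Adra1b probe 3: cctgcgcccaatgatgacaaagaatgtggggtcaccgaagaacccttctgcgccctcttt

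Adra2a: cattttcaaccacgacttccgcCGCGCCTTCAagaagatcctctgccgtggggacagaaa

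The probes' content of G and C ran from 40% in Adra1d to 58.3% in Adrb1. The sources used here give no genome build for the array's design, so no coordinates are stated.

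Detection separated the receptors. Probes for Adra1d, Adra1b (probe 1), Adra2a and Adra2b were well above background in Cy5 on all 8 arrays, so 4 of the 9 probes against 55.5% of all gene probes. Adra1a, the subtype that mediates much of the contraction of human prostate smooth muscle, was the 1 receptor probe marked on no array in Cy5, as were 19.8% of all gene probes. Its Cy5 intensity ran from 101 to 116 scanner units, where the medians of the 153 negative control spots ran from 93.4 to 97.1. In the reference channel 2 of the 9 probes, Adra1d and Adra2b, were marked on all 8 arrays and 5 on none, against 45.1% and 45.5% of all gene probes. The 5 were those of Adra1a, Adra1b probe 2, Adra1b probe 3, Adra2c and Adrb1. No receptor probe was saturated on any array.

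**Figure D1:**
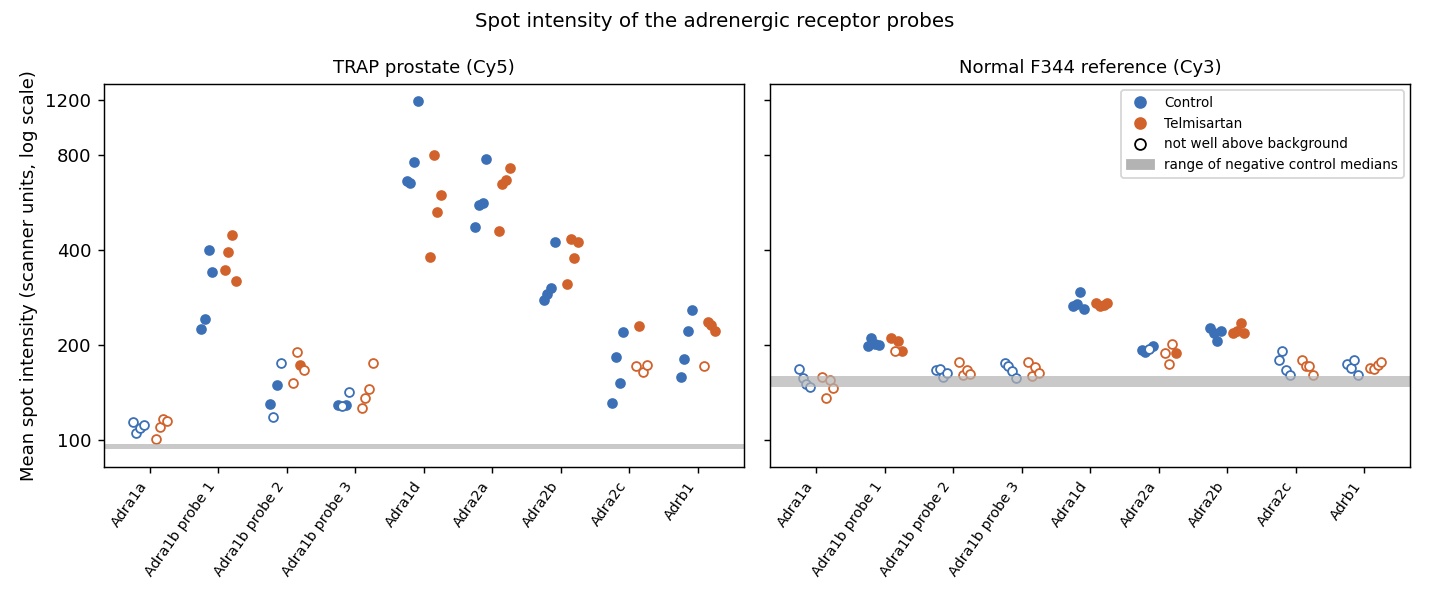
Mean spot intensity on a log scale (scanner units, before background correction) of the 9 receptor probes in the TRAP channel (left) and the reference channel (right), 1 point per array, blue for control and orange for telmisartan rats. Open points are not well above background and the grey band is the range of the negative control medians; Adra1d and Adra2a have the brightest TRAP spots, and Adra1a lies near the band in both channels.

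Of the alpha-1 receptors, Adra1d had the brightest spots in Cy5, though the brightness of different probes does not rank their RNA levels. Its Cy5 intensities were 661, 652, 764 and 1190 in Control 102, 103, 104 and 106, and 380, 802, 528 and 597 in Telmisartan 302, 303, 305 and 306. Before normalization the groups overlapped, since Telmisartan 303 was above 3 of the 4 control rats. In the reference channel the spot was well above background on every array, with 261 to 296 scanner units.

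After background correction and loess normalization within each array, the log2 ratio of Adra1d over the reference was 0.12, 0.07, -0.18 and 0.35 in Control 102, 103, 104 and 106. In Telmisartan 302, 303, 305 and 306 it was -0.50, -0.30, -0.43 and -0.49. Every treated rat lay below every control rat. The means were 0.09 ± 0.22 and -0.43 ± 0.09 (SD, n = 4 each), a difference of -0.52 (SE 0.12, 95% interval -0.79 to -0.25), or 1.43-fold more in control rats. With limma over all 23186 genes the adjusted p was 0.910 (unadjusted p = 0.00166, place 40 of 23186 by p), so Adra1d did not pass the threshold of 0.05. No gene passed it (0%), 481 genes (2.07%) were lower and 636 (2.74%) higher at an unadjusted p under 0.05, and the groups stood apart in the lower direction for 285 genes (1.23%) and in the higher direction for 347 genes (1.5%). In bulk tissue, fewer cells of a type and less RNA per cell cannot be told apart.

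In normalized channel values, the difference in Adra1d lay in the TRAP channel. These values were rebuilt from the loess ratio and the mean log2 intensity of both channels, scaled between arrays. They are therefore not separate from that ratio, and the raw Cy5 intensities overlapped. The rebuilt log2 Cy5 intensity was 8.60, 8.55, 8.57 and 8.87 in the control rats, in the same order of rats. In the treated rats it was 7.97, 8.38, 7.92 and 8.08. The groups did not overlap in these values, with means of 8.65 ± 0.15 and 8.09 ± 0.20 (SD, n = 4 each) and a difference of -0.56. The reference channel, which held normal prostate on every array, gave 8.56 ± 0.13 on the control arrays and 8.52 ± 0.14 on the treated arrays (SD, n = 4 each), a difference of -0.04 with overlapping values.

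**Figure D2:**
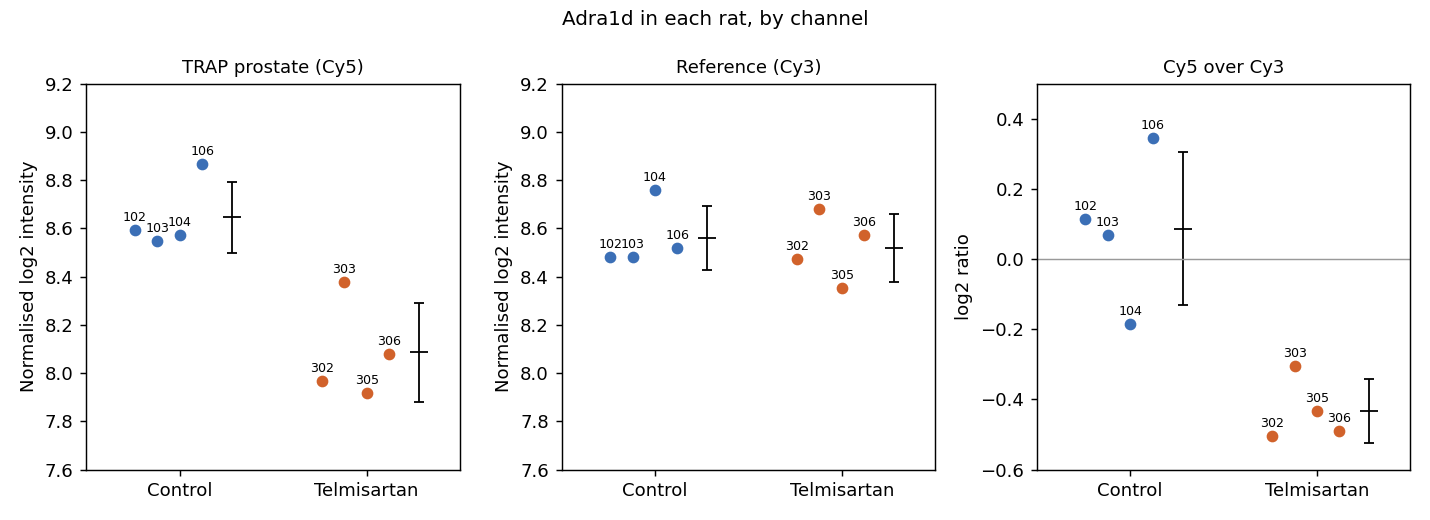
Adra1d in each rat: normalised log2 intensity in the TRAP channel (left) and in the reference channel (middle), and the log2 ratio (right), with rat numbers beside the points and the group mean and SD (n = 4 each) at the side. The groups are apart in the TRAP channel and in the ratio, and overlap in the reference channel.

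Within slide 1, which held 2 rats of each group, the mean ratio of Adra1d was 0.09 in control and -0.40 in treated rats, and within slide 2 it was 0.08 and -0.46. The difference was -0.50 on slide 1 and -0.54 on slide 2. On both slides the treated rats were at positions 1 and 2 and the control rats at 3 and 4, so position and treatment cannot be told apart.

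Adra1b, the other alpha-1 receptor in the fit, was read by 3 probes of unequal signal. Probe 1 was well above background in Cy5 on all 8 arrays and in Cy3 on 7, with Cy5 intensities of 225 to 447. Probe 2 was so marked in Cy5 on 3 arrays (Control 102, Control 104 and Telmisartan 305) and probe 3 on 2 (Control 102 and Control 104), and neither on any array in Cy3. The fit used probe 1. Its log2 ratio was -0.22, -0.28, 0.09 and -0.21 in Control 102, 103, 104 and 106 and 0.03, -0.15, 0.08 and -0.16 in Telmisartan 302, 303, 305 and 306. The groups overlapped, with means of -0.15 ± 0.17 and -0.05 ± 0.12 (SD, n = 4 each) and a difference of 0.10 (SE 0.11, 95% interval -0.15 to 0.36, limma adjusted p = 0.982). Probe 2 differed by 0.04 and probe 3 by -0.15, so the sign was not common to the 3 probes. These 2 rest mostly on spots not well above background.

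For Adra1a no ratio was fitted. Its spots gave log2 ratios of -0.01 to 0.29, but with neither channel well above background on any array these values carry no level. Fold differences of Adra1a are therefore not given for either comparison.

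Among the alpha-2 receptors, Adra2a was the 1 receptor in the fit above normal F344 prostate in all 8 rats. It is the main alpha-2 autoreceptor of sympathetic nerve endings. Its Cy5 intensity was 462 to 780, and its log2 ratio was 0.60, 0.89, 0.59 and 0.65 in Control 102, 103, 104 and 106. In Telmisartan 302, 303, 305 and 306 the ratio was 0.80, 0.58, 0.70 and 0.66. Of all genes tested, 30.8% were likewise above 0 in all 8 rats, and the mean of 0.68 corresponds to 1.61-fold more than in the reference. The reference spot was dim, at 175 to 201 scanner units where the 95th percentile of negative control spots was 162 to 172, and it was well above background on 4 of 8 arrays (Control 102, 103 and 106 and Telmisartan 306). The fold over the reference ran from 1.41 with no background correction to 2.37 with the scanner software's own ratio.

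No difference between treated and control rats was detected in Adra2a. The group means were 0.68 ± 0.14 and 0.68 ± 0.09 (SD, n = 4 each), and the 95% interval of the difference, -0.23 to 0.23, leaves room for a change of that size in either direction (limma adjusted p = 0.999).

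Adra2b, the alpha-2 subtype of vascular smooth muscle and other peripheral sites, was the 1 receptor below the reference in all 8 rats, as were 25.7% of all genes tested. Its Cy5 intensity was 278 to 433, and both channels were well above background on every array. The log2 ratio was -0.49, -0.27, -0.20 and -0.34 in Control 102, 103, 104 and 106 and -0.18, -0.38, -0.42 and -0.23 in Telmisartan 302, 303, 305 and 306. The groups overlapped throughout, with means of -0.33 ± 0.12 and -0.30 ± 0.11 (SD, n = 4 each) and a difference of 0.02 (SE 0.10, 95% interval -0.21 to 0.25, limma adjusted p = 0.997). Over the 8 rats the level was 0.804 times that of the reference.

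Those signs over the reference depend in part on how an array is centred. Over the 23186 genes tested, which were kept for signal well above background in Cy5, loess put the median ratio at 0.06 in both groups. Centring each array on its median intensity ratio put the median of those genes at 0.67 in control and 0.73 in treated rats. With median centring Adra2a stayed above 0 in all 8 rats, at 1.14 in both groups, and Adra1d was also above 0 in all 8, at 0.82 in control and 0.20 in treated rats. Adra2b then stood at -0.06 and 0.05 and was no longer below 0 in every rat, while Adra2c was. Adrb1 turned from 0.16 and 0.11 to -0.17 and -0.23. Under the other ways of background correction and normalization Adra2a was above and Adra2b below 0 in all 8 rats.

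Adra2c, the alpha-2 subtype that with Adra2a limits noradrenaline release, was weakly measured. It was well above background in Cy5 in all 4 control rats and in 1 of 4 treated rats (Telmisartan 303), and on no array in Cy3. Its Cy5 intensities nevertheless overlapped, at 131 to 220 in control and 165 to 230 in treated rats, so the unequal detection did not go with lower signal. The share of all gene probes so marked also tended lower on the treated arrays, as given above. The log2 ratio was -0.16, -0.35, -0.01 and 0.58 in Control 102, 103, 104 and 106, and -0.13 to 0.01 in the treated rats. These ratios rest on a reference signal that was well above background on no array, whose normalized log2 values had an SD of 0.35 over the control arrays. In the normalized values of the TRAP channel the means were 6.85 ± 0.23 and 6.86 ± 0.17 (SD, n = 4 each), a difference of 0.01, with 1 treated rat well above background. The fit of the ratio gave -0.05 (SE 0.18, limma adjusted p = 0.997), which turned to 0.14 without Control 106, the high value of its group.

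The beta-1 receptor Adrb1, known best for raising heart rate and force, was likewise well above background in the TRAP channel alone. It was so marked in Cy5 in 7 of 8 rats, all but Telmisartan 302, and on no array in Cy3. By the weaker mark of a positive and significant signal, it was seen in Cy3 on 5 of 8 arrays. Its mean Cy5 value was set against the lowest reference signal marked well above background on each array, or its own if higher. It was 1.08-fold that signal in control rats and 1.02-fold in treated rats. These values are not lower bounds on the fold over the reference, since unmarked reference spots can exceed that lowest signal. They come from means of normalized log2 values in each channel, open to dye bias without a swap, and they hold for loess normalization. The treated mean includes Telmisartan 302, and the ratio was below 0 in Control 102 and Telmisartan 306. With median centring the mean ratio of Adrb1 over the 8 rats was -0.20, the other direction. The same calculation gave no fold above 1 for Adra2c or for probes 2 and 3 of Adra1b. The log2 ratio of Adrb1 was -0.03, 0.30, 0.01 and 0.37 in Control 102, 103, 104 and 106 and 0.37, 0.05, 0.14 and -0.11 in Telmisartan 302, 303, 305 and 306. The groups overlapped, with means of 0.16 ± 0.20 and 0.11 ± 0.20 (SD, n = 4 each) and a difference of -0.05 (SE 0.14, 95% interval -0.35 to 0.26, limma adjusted p = 0.997).

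**Figure D3:**
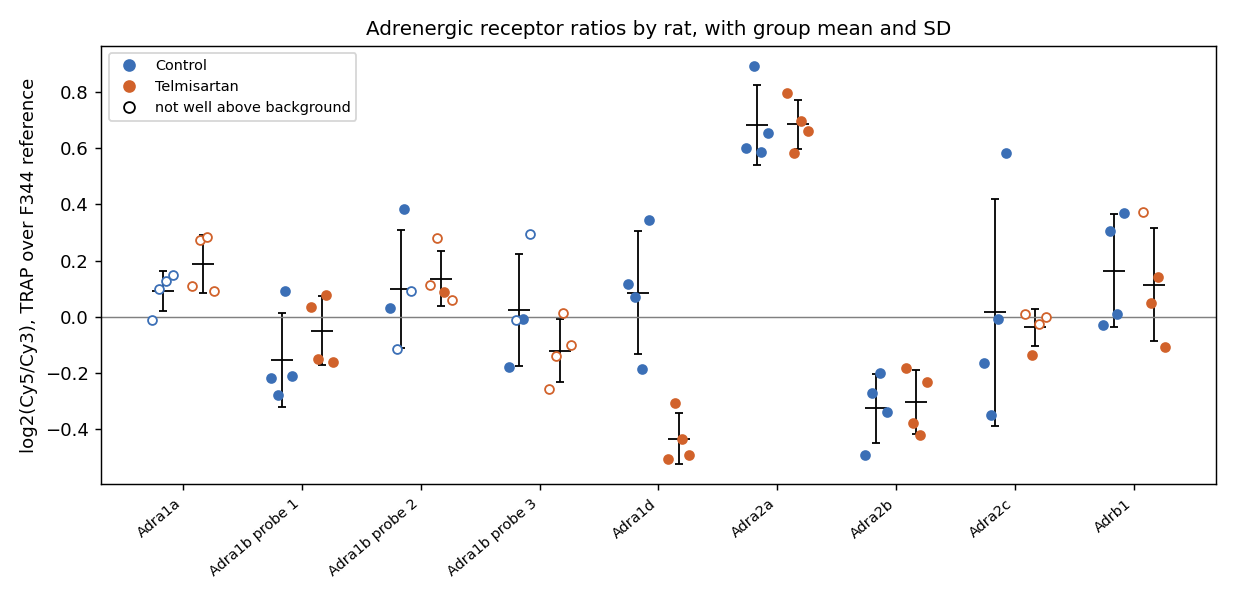
The log2 ratio of TRAP over normal F344 prostate for each receptor probe and rat, blue for control and orange for telmisartan, open where the TRAP spot was not well above background, with the mean and SD of each group (n = 4). Adra1d is the 1 probe whose groups are apart, Adra2a is above 0 and Adra2b below 0 in all 8 rats.

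Taking the treated against the control rats for the 6 receptors in the fit, 0 of 6 passed the adjusted threshold of 0.05 in limma and 1 of 6, Adra1d, had an unadjusted p under 0.05, against 2.07% of all genes in that direction. Of 23 alternative settings, 7 left the difference of Adra1d and of Adra1b exactly at its main value, so their sign could not change. In the other 16 settings Adra1d was lower in treated rats, from -0.69 with the scanner software's ratio to -0.41 with no background correction, and its adjusted p over all 23 was never below 0.327. Since Adra1d was selected on this difference, the settings describe its size and are no separate support. With single rats left out its difference ran from -0.61 without Control 104 to -0.43 without Control 106. Its groups did not overlap in any of the 7 ways of normalizing that were compared, of which Aquantile repeats the main ratios, and those of the other 5 receptors overlapped in all 7. Adra1b was higher in treated rats in those 16 settings, from 0.02 to 0.37, and never passed the threshold. The sign of Adra2a, Adra2b, Adra2c and Adrb1 changed with the setting.

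**Figure D4:**
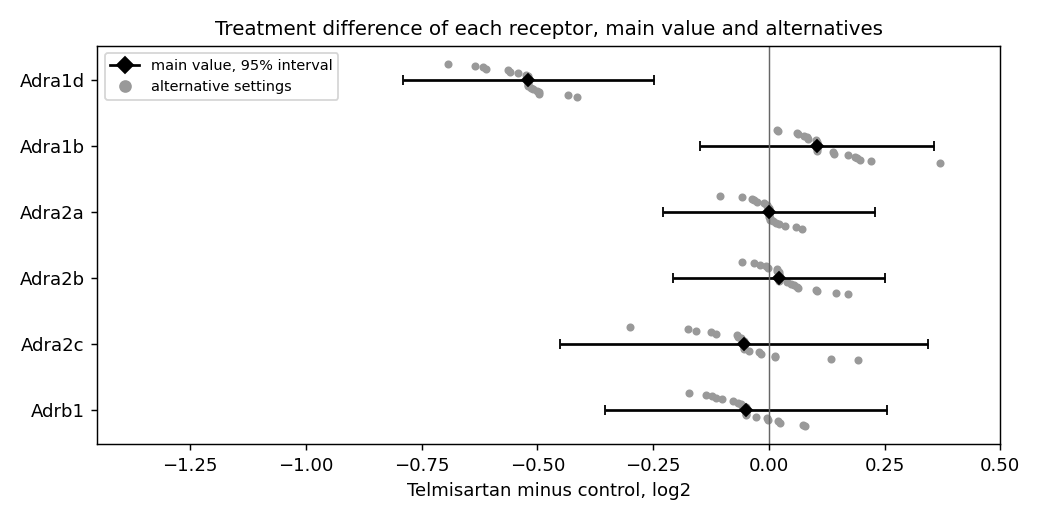
Treated minus control rats on the log2 scale for the 6 receptors in the fit; diamonds with bars are the main value and its 95% interval, grey points the alternative settings. Adra1d stays below 0 throughout, Adra1b above 0 in the alternatives with an interval that includes 0, and the other receptors scatter around 0.

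Genes around the receptors were taken from 7 lists with 125 members, of which 101 could be tested. None passed the adjusted threshold in limma, 51 were lower and 50 higher in treated rats, and the median difference was -0.01, close to that of all genes. An unadjusted p under 0.05 was reached by 3 genes in the lower direction (2.97%) and 1 in the higher direction (0.990%), against 2.07% and 2.74% of all genes.

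For the transmitter itself, 8 of 12 genes of catecholamine synthesis, storage and clearance were tested, 3 lower and 5 higher, with a median difference of 0.01. Ddc, which makes dopamine from its precursor, differed by 0.29, Slc18a1, a vesicular monoamine transporter, by -0.23, and Cyb561, which supplies electrons to the granules that store catecholamines, by 0.12. Each had a limma adjusted p of 0.982, and the Slc18a1 ratio rests on a reference signal well above background on no array.

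Of the G protein subunits through which the receptors signal, 10 of 17 tested were lower and 7 higher. Gnb4 had the largest difference, -0.69 (SE 0.38), from 1.98 ± 0.56 to 1.28 ± 0.77 (SD, n = 4 each). Gna11, a Gq family subunit that alpha-1 receptors use, differed by 0.17, Gna13 by -0.28 and Gng12 by -0.22. Gna13 was well above background in Cy5 on 2 of 4 treated arrays and on no array in Cy3. Receptor kinases, arrestins and RGS proteins, which end receptor signalling, had 8 of 11 lower and a median of -0.14. Among them Rgs18 differed by -0.57 (SE 0.28), Grk6 by -0.24, Grk2, the kinase that marks active beta receptors for arrest, by -0.15, and Arrb1, an arrestin, by 0.26. Each of these had a limma adjusted p of 0.982.

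Downstream of alpha-1 receptors, 10 of 16 genes of phospholipase C and calcium were lower, with small differences in Prkcd (-0.22), Camk2d (-0.20), Plcb2 (-0.18) and Prkca (-0.14). Camk2d and Plcb2 were well above background on no array in Cy3. Of the contraction genes 6 of 14 were lower and 8 higher. Mylk, the kinase that phosphorylates myosin light chain to start contraction, differed by 0.33 (SE 0.14) from -2.54 ± 0.22 to -2.21 ± 0.20 (SD, n = 4 each). Atp2a2, the pump that returns calcium to its store, differed by -0.26 (SE 0.11), Ppp1r14a, an inhibitor of myosin phosphatase, by 0.27, and Cacna1c, the L-type calcium channel, by 0.12. Their adjusted p in limma was 0.982.

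Downstream of alpha-2 and beta receptors, 10 of 21 genes of adenylyl cyclase, cyclic AMP and protein kinase A were lower and 11 higher. The cyclase Adcy7 differed by 0.16, the phosphodiesterase Pde4d by -0.25 and the cyclic AMP responsive factors Creb1 and Crem by -0.17 each. Among 14 other autonomic receptors and transmitters 4 were lower and 10 higher. Npy, a co-transmitter of sympathetic nerves, differed by -1.69 (SE 0.71) with a spread between rats almost as large, from 1.40 ± 1.25 to -0.29 ± 1.32 (SD, n = 4 each). The muscarinic receptors Chrm3 and Chrm4 differed by 0.30 and 0.31 and the peptide receptor Vipr1 by 0.23, all with a limma adjusted p of 0.982. Chrm4 was weakly measured, well above background in Cy5 on 2 of 4 treated arrays and in Cy3 on 1 of 8 arrays.

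**Figure D5:**
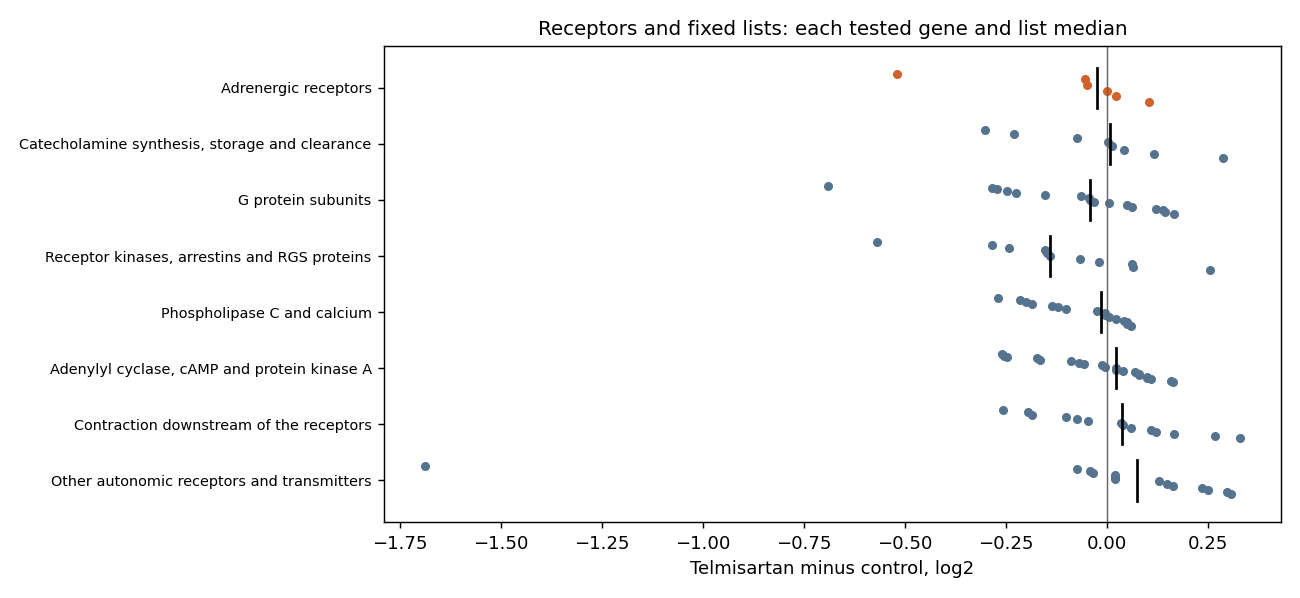
Treated minus control rats on the log2 scale for each tested gene of the adrenergic receptors and of the 7 surrounding lists (1 point per gene), with the median of each list as a black bar. List medians lie between -0.14 and 0.08, and Adra1d, Gnb4, Rgs18 and Npy are the points farthest to the left in their rows.

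The cell types that carry these receptors were followed through marker lists. Of 9 smooth muscle markers tested 2 were lower and 7 higher in treated rats, and the list's mean log2 ratio ran from -1.35 to -0.89 in control and from -1.08 to -0.71 in treated rats. Tpm2 differed by 0.56 and Tagln by 0.17, while Actg2 differed by -0.07. All 13 leukocyte markers tested were lower, with list means of 0.94 to 2.18 in control and 0.51 to 2.04 in treated rats. Of all genes tested, 50.6% were lower. The 7 nerve and neuroendocrine markers tested gave -0.80 to -0.47 and -0.79 to -0.47. An unadjusted p under 0.05 in limma was reached by 3 of the 9 smooth muscle markers, all higher, against 2.74% of all genes. Among them was Mylk, which is also in the contraction list and was counted there. An unadjusted p that low was reached by 2 of the 13 leukocyte markers, all lower, against 2.07%, and by 0 of the 7 nerve and neuroendocrine markers. No marker of any list passed the adjusted threshold in limma. The part of these cell types in the difference of Adra1d was not tested beyond the relations that follow.

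Each of the 6 receptors was set against the smooth muscle, nerve and leukocyte means across the 8 rats, 18 relations in all, by an exact permutation test, two-sided. None passed after adjustment over the 18. For Adra1d, Pearson's r was -0.48 with smooth muscle (exact permutation p = 0.236, adjusted 0.591; Spearman's rho -0.62, p = 0.115), with -0.09 without Control 102 and 103, -0.48 with slide means removed and -0.08 with group means removed. With leukocyte markers it was 0.39 (exact permutation p = 0.328, adjusted 0.591; rho 0.48, p = 0.243) with 0.51 without Control 103 and Telmisartan 302, 0.52 with slide means removed and 0.06 with group means removed. Adra2b had the largest r, 0.70 with smooth muscle (exact permutation p = 0.0524, adjusted 0.442; rho 0.57, p = 0.151) and 0.69 without the 2 rats farthest from the median. Over all 8 rats r was 0.71 with Cy5 alone, 0.69 with slide means removed and 0.75 with group means removed. Leaving out the 2 farthest rats, Control 102 with Telmisartan 302 or, for group means, 305, gave 0.35, 0.13 and 0.26. The relation rests on those rats in these settings. With nerve markers Adra2b had 0.68 (exact permutation p = 0.0736, adjusted 0.442), rho 0.76 (p = 0.0368, adjusted 0.506), and 0.34 without Control 104 and Telmisartan 302. With leukocyte markers it had -0.56, and -0.25 without Control 103 and Telmisartan 302. With slide means removed it had -0.80 (exact permutation p = 0.0136, adjusted 0.244), rho -0.62 (exact permutation p = 0.115), and -0.44 without Control 102 and Telmisartan 302. In the other direction, r with Cy5 alone was -0.69, and -0.85 without Control 103 and Telmisartan 302. Adra2a had -0.69 with leukocyte markers (exact permutation p = 0.0563, adjusted 0.442; rho -0.52, p = 0.197), which turned to 0.11 without Control 103 and Telmisartan 302 and so rests on those rats.

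The genes whose ratio followed each receptor most closely over the 8 rats were listed out of 11408 other named genes. Nearest to Adra1d were Pgam1 (r = 0.961), Tgm1 (0.945), Msl1 (0.944), Cda (0.920) and Fut2 (0.905), and 7 genes reached 0.9. Fut2, a fucosyltransferase, differed by -0.46 between the groups and Pgam1, a glycolytic enzyme, by -0.22, while Msl1 differed by -0.08. For Adra1b they were Nat9, Smarcd3, Tcea2, Nexmif and Ice1, and for Adra2a, Or1j15, Cdkn3, Stxbp5l, Nanos1 and Gucy2g. For Adra2b they were Hagh, Pank3, Armcx3, Cisd3 and Dlg3, for Adra2c, Mdn1, Zbtb22, Cdh1, Morn4 and Sik2, and for Adrb1, Or5p66, Fgb, Hcn3, Mrps10 and Slc26a7. With 8 rats and this many genes such values are a description, and between 7 and 39 genes reached 0.9 for each receptor.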

How the data were processed

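Per the file headers, arrays were read with Agilent Feature Extraction 9.1. The deposited files give mean spot and median local background intensities for each channel, uncorrected, and the log10 of Cy5 over Cy3, which the software had background-subtracted and dye-normalized. The authors' deposited series matrix held the same log10 ratios (largest difference 0.00500), and the median of its ratios was 0 on every array. Each array had 45018 spots.

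The intensities were corrected with normexp (offset 50), normalized by loess within arrays, and turned to log2 ratios in limma 3.58.1 with R 4.3.3. Control spots and outlier spots were left out. Channel values were rebuilt from the loess ratio and the mean log2 intensity of both channels, scaled between arrays with Aquantile. Where Cy5 alone is named as a setting, these rebuilt Cy5 values were used. A probe entered the fit if 4 or more of the 8 arrays had it well above background in Cy5, with a value on all 8, and the brightest probe stood for a gene. Of the genes tested, 11409 had symbols from a RefSeq table of GRCr8, used for names only. lmFit and eBayes compared the groups, with Benjamini-Hochberg adjustment over 23186 genes. Depth does not apply to arrays, and 4 rats per group limit the precision.

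The labels number the rats but say nothing of litters, so p-values measure the spread between these samples. The treated rats' label names 2 doses; the dose of 10 mg/kg per day comes from the series text, and the other dose was not analysed here. The receptors and lists were chosen with earlier results of these data known. Named are all members, up to 4 genes of each list by smallest p, up to 3 markers by intensity and the 5 genes most like each receptor; 1 gene the rule takes is not reported here. Other beta receptors were not analysed here.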

Additional observations from a re-analysis of the deposited data

How the results depend on the processing

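No gene passed in any of the settings with all rats, and leaving out each rat in turn gave 0 to 1 genes, 1 each without Control 102 and without Telmisartan 303, none of them a receptor. The receptors' count stayed 0 throughout, as did that of the listed genes and markers with each rat left out. Receptors above the reference in every rat were 1 in the main setting and 2 with median centring. Counting spots merely positive and significant raised probes detected on all 8 arrays from 4 to 7 in Cy5 and from 2 to 4 in Cy3. With the scanner software's ratio Adra1b differed by 0.37, Adra2b by 0.17 and Adra1d by -0.69, and with Cy5 alone Adra2b by 0.15. The causes were not tested. Aquantile leaves ratios unchanged by construction. With slide as a block Adra1d had an adjusted p of 0.656 in limma. No paired analysis was possible because the groups share no rat numbers. Signal near background limits Adra1a, Adra2c, Adrb1 and probes 2 and 3 of Adra1b. Reference signal near background also limits the listed genes Slc18a1, Gna13, Camk2d, Plcb2 and Chrm4. Removing group means, and leaving rats out of the lists, were chosen after seeing the data.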
